A study of Homo sapiens with 4 samples.

Results

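Crosslink sites in the RNAs of 10 genes for adaptor proteins of focal adhesions were described here: TLN1, TLN2, VCL, PXN, ZYX, LASP1, PTK2, ILK, TNS4 and LIMS1. All listed sites were taken whose gene label held one of these symbols, which gave 585 of 158922 sites in the PDCD4 list and 456 of 111361 sites in the IgG list, from 10 of 14387 gene symbols. The cells were MCF10A, an untransformed human breast epithelial line, of WT genotype and with no treatment beyond routine culture in medium with horse serum, epidermal growth factor, insulin, hydrocortisone and cholera toxin. 2 replicates were immunoprecipitated with an antibody to PDCD4, a tumour suppressor that binds RNA, and 2 with control IgG. All samples share 1 cell line and 1 genotype, and no PDCD4-depleted cells serve as a control for the antibody. Sites were mapped by iCLIP, in which UV light crosslinks protein to RNA, the protein is precipitated, and the cDNA made from the attached RNA tends to stop next to the crosslinked base. Each deposited list pools its replicates, so that no replicate spread and no test between the immunoprecipitations could be had, and every interval below is a 95% interval that covers counting error only.

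Focal adhesions are the sites at which integrins, the receptors for extracellular matrix, connect to actin filaments inside the cell. Talin, encoded by TLN1 and TLN2, binds integrin tails and actin, and vinculin (VCL) joins talin to actin under tension. Paxillin (PXN), zyxin (ZYX) and LASP1 are scaffold or LIM domain proteins that gather partners at the adhesion, focal adhesion kinase (PTK2) signals from it, and ILK and LIMS1 (PINCH) form a complex with parvins behind integrins. TNS4 (cten) is a short tensin of epithelial cells that lacks the actin-binding part of the other tensins.

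Score is the number of cDNAs at a site, and levels below are summed scores of a gene. Only sites kept by the authors' peak calling are listed, so cDNAs at other sites are missing from the sums. The lowest score listed for a lone site can differ between the lists. In TLN1, PDCD4 sites with 1 or 2 cDNAs all lay beside another site, while IgG sites with 2 also stood alone. How far this moves the ratios was not tested. The PDCD4 list holds 409308 cDNAs and the IgG list 276139. All 12 markers of basal mammary epithelium had PDCD4 sites, with 2595 PDCD4 and 1394 IgG cDNAs, while markers of blood, endothelium and liver had 0 cDNAs in both lists and 1 of 4 fibroblast markers had 2 in each. The amount of each RNA in the cells was not analysed here, so a level reflects RNA abundance as well as crosslinking, and fewer cells with an RNA cannot be told apart from less RNA per cell.

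Summed over the 10 genes there were 1625 PDCD4 cDNAs, 0.397% of that list, and 1156 IgG cDNAs, 0.419%. The log2 ratio of these shares, PDCD4 over IgG with 1 cDNA added to each sum, was -0.08 (-0.19 to 0.03). Single genes set its direction: it was -0.28 (-0.41 to -0.15) without TNS4 and 0.14 (0.02 to 0.26) without PTK2, and with sites within 20 nt merged it was -0.35 (-0.56 to -0.15). The ratio differed between regions. In coding sequence the 10 genes held 399 PDCD4 and 127 IgG cDNAs, a log2 ratio of 1.08 (0.79 to 1.36). In introns they held 700 and 686, a log2 ratio of -0.54 (-0.69 to -0.39). The 3′UTRs lay between, with 475 and 317 cDNAs and a log2 ratio of 0.01 (-0.19 to 0.22). Over all listed sites the same ratios were 1.11 in coding sequence, -0.43 in introns and 0.23 in 3′UTRs, so the division by region was not particular to these genes. Coding sequence took 24.6% (22.5 to 26.7) of the PDCD4 cDNAs of the 10 genes and 10.99% (9.24 to 12.9) of the IgG cDNAs, and introns 43.1% (40.7 to 45.5) and 59.3% (56.4 to 62.2). With scores greater than 5 the intron shares stood in the other order, at 34.0% (26.3 to 42.5) and 17.6% (6.76 to 34.5). These intervals overlap, and the IgG share came from 1 PTK2 site with a score of 6, so the order there was not resolved.

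**Figure D1:**
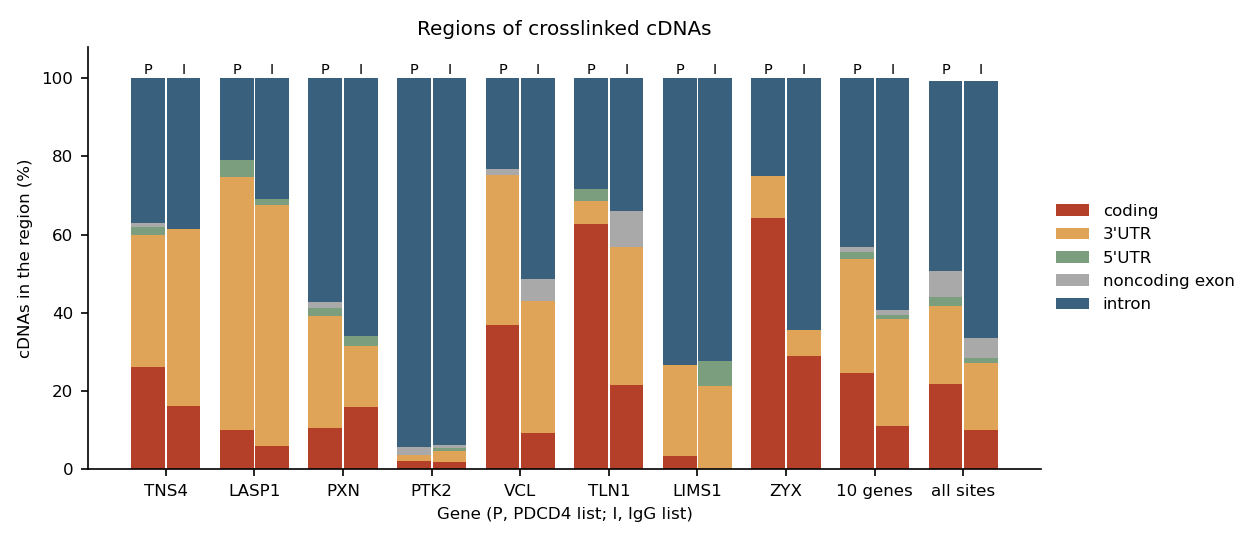
Share of cDNAs (vertical axis, percent) in coding sequence, 3′UTR, 5′UTR, noncoding exon and intron for 8 of the genes, for all 10 together and for all sites, with the PDCD4 list (P) beside the IgG list (I); TLN2 and ILK are left out for their few cDNAs, and sites outside the labelled gene's annotation leave the last bars short of 100%. Coding shares are higher in the PDCD4 list for TLN1, VCL and ZYX, lower for PXN, and PTK2 is almost all intron in both lists.

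Among the 10 genes, 9 reached a summed score of 20 over both lists. None of the 9 was at least 2-fold higher in the PDCD4 list, against 16.4% of 7297 genes, and only PTK2 was at least 2-fold higher in the IgG list, against 16% of these genes. With scores greater than 5, where 21 PDCD4 and 5 IgG sites of these genes are left, only 3 of them reached the minimum sum. TLN1 and PXN were then at least 2-fold higher in the PDCD4 list, as were 51.3% of 156 genes, and TNS4 was not past 2-fold in either direction, while 20.5% of genes were towards IgG. VCL and PTK2 each kept 1 IgG site with a score of 6 and no PDCD4 site, too few for a call. The interval lay above 0 for TLN1 and TNS4, 2 of 9 against 19.9% of all genes, and below 0 for PXN and PTK2, 2 of 9 against 25.4%. The median log2 ratio was -0.22 for the 9 genes and -0.09 for all 7297.

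**Figure D2:**
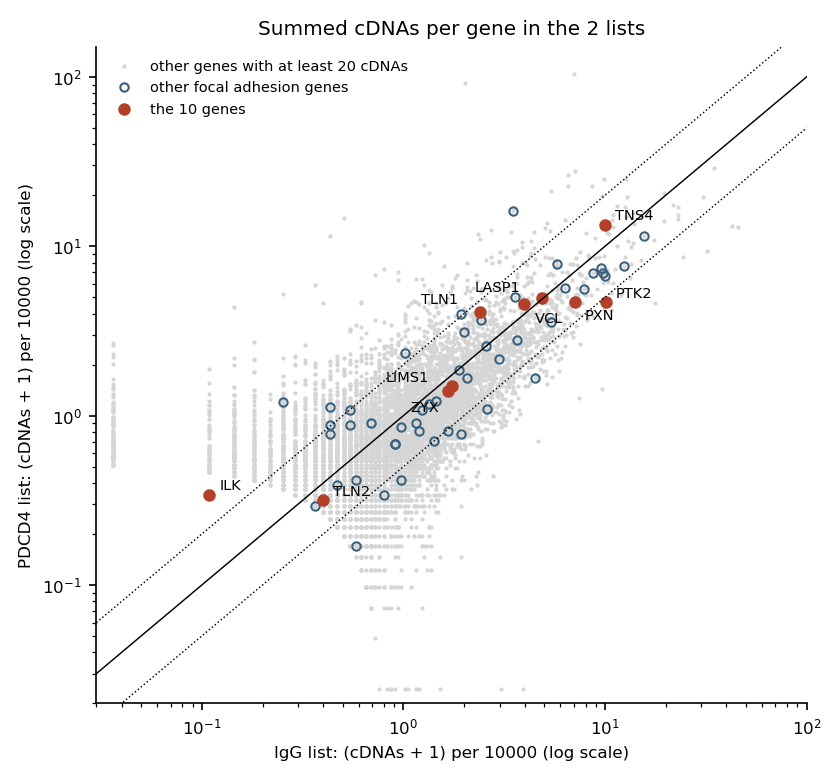
Summed cDNAs of each gene plus 1, per 10000 cDNAs of the list, in the IgG list (horizontal, log scale) and the PDCD4 list (vertical, log scale). Filled points are the 10 genes, open circles other focal adhesion genes and grey points other genes with at least 20 cDNAs; the solid line marks equal shares and dotted lines 2-fold. TNS4 is the highest of the 10 in the PDCD4 list, PTK2 lies at the lower 2-fold line, and ILK is left of the others with 2 IgG cDNAs.

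TNS4 stood highest of the 10 in the PDCD4 list, at 13.4 cDNAs per 10000, and ranked 33 of 7297 genes there. LASP1, PXN, PTK2, VCL and TLN1 followed with 4.94, 4.69, 4.67, 4.52 and 4.06. Their Poisson intervals, from 175 to 232 cDNAs for LASP1 to 142 to 193 for TLN1, overlapped, so this order was not resolved. LIMS1 and ZYX, at 1.47 and 1.37, did not separate either, nor did ILK and TLN2, at 0.318 and 0.293. In the IgG list PTK2 and TNS4 led with 10.0 and 9.92, then PXN with 7.03, LASP1 with 4.82, VCL with 3.95 and TLN1 with 2.35. PXN and PTK2 were thus level with LASP1 and VCL in the PDCD4 list and above them in the IgG list.

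Per length of coding sequence the order was different. The length counts every base that is coding in any annotated transcript. For PXN it is 3614 nt and includes an exon of 885 nt that 2 of 14 coding transcripts contain whole. The scarcity of sites near the 3′ ends of exons, given below, was not corrected for, so genes with unlike exons are compared only roughly. TNS4 had 66.6 PDCD4 cDNAs per kb (56.2 to 78.5), above every other member. LASP1 (21.3), VCL (20.0) and ZYX (18.7) had overlapping intervals, TLN1 had 13.6 (11.1 to 16.4) and PXN 5.53 (3.38 to 8.55). LIMS1 and PTK2 were at 1.30 and 1.05 per kb, TLN2 at 0.258, and ILK had no coding cDNA. In the IgG list TNS4 again led, with 20.5 per kb, but PXN, at 8.58, was level with LASP1 at 8.52 and above VCL at 2.94 and TLN1 at 1.82.

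**Figure D3:**
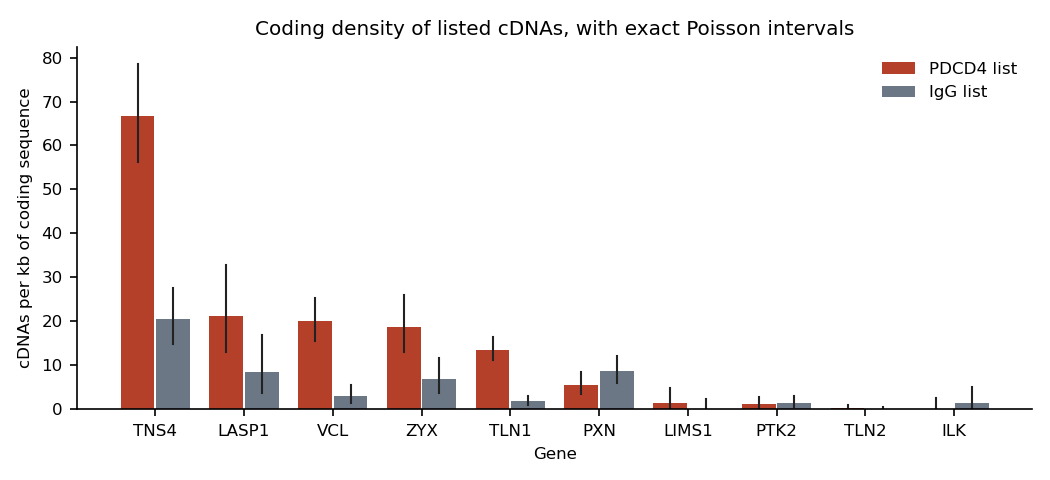
cDNAs per kb of coding sequence (vertical axis from 0) for each gene in the PDCD4 and IgG lists, with exact 95% Poisson intervals as lines. The PDCD4 bar is the taller for TNS4, LASP1, VCL, ZYX and TLN1, and the IgG bar for PXN.

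TLN1 (ENSG00000137076, chr9:35696948-35732195 on GRCh38, minus strand) had the highest log2 ratio among the 9 genes, with 166 cDNAs at 53 PDCD4 sites and 65 at 26 IgG sites, a ratio of 0.77 (0.36 to 1.18), and on coding sites it was the highest of the 6 members tested there. Counted as sites rather than cDNAs, its log2 ratio was 0.49 (-0.18 to 1.15), which no longer left out 0. Within this gene the coding sequence and the 3′UTR differed in direction. The coding sequence held 104 PDCD4 and 14 IgG cDNAs, a log2 ratio of 2.24 (1.46 to 3.02), and the 3′UTR held 10 and 23, a log2 ratio of -1.69 (-2.72 to -0.66). TLN1 was the only one of 6 members tested on 3′UTR sites that was at least 2-fold higher in the IgG list, against 11.2% of 1823 genes, and the only one whose interval lay below 0, against 13.6%. None of the 6 was at least 2-fold higher in the PDCD4 list (23.8% of genes) or had an interval above 0 (22.9%). The IgG sites of the 3′UTR were 9, and those of the PDCD4 list 4. Introns were at 47 and 22 cDNAs (0.49, -0.22 to 1.21). Exon 30 of the 57 canonical exons had the most PDCD4 cDNAs of the internal exons, 18 at 5 sites, followed by exon 45 with 13 and exon 5 with 11, and none of these 3 exons had an IgG site. The coding sites thus lay apart along the mRNA rather than in 1 block. The 3 TLN1 sites with a score greater than 5 all lay in these exons, with scores of 7, 7 and 6, and are printed 5′ to 3′ as DNA letters with the listed base in capitals, to show the context of the highest coding sites. Each window covers 15 bases before the site and 14 after it.
TLN1 exon 30, chr9:35711333-35711362, minus strand: cttgaagggcatctcCatgtcttcaagcaa
TLN1 exon 5, chr9:35724680-35724709, minus strand: atgaatattcattggTtcgagagctgatgg
TLN1 exon 45, chr9:35704428-35704457, minus strand: cacccaggcctgcatCacagcagccagcgc
The listed base was C at 2 of these sites and T (U in the RNA) at the other.

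TLN2 (ENSG00000171914, chr15:62390526-62844631, plus strand), the second talin, had 12 cDNAs at 5 PDCD4 sites and 10 at 4 IgG sites, a log2 ratio of -0.33 (-1.49 to 0.83). In the PDCD4 list 10 of the 12 cDNAs were intronic, and the coding sequence held 2. The talins therefore differed in level in these lists, at 13.6 and 0.258 PDCD4 cDNAs per kb of coding sequence.

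VCL (ENSG00000035403, chr10:73995193-74121363, plus strand) had 185 cDNAs at 77 PDCD4 sites and 109 at 45 IgG sites, a log2 ratio of 0.19 (-0.15 to 0.53). Among the 9 members with at least 20 cDNAs its coding sequence and introns diverged most, though by intervals that overlap this order was not resolved. Coding sequence held 68 and 10 cDNAs, a log2 ratio of 2.08 (1.16 to 2.999), and introns 43 and 56, a log2 ratio of -0.94 (-1.51 to -0.37). The ratio of coding to intronic cDNAs in the PDCD4 list over that in the IgG list was 3.02 on the log2 scale (1.94 to 4.10), against 1.54 (1.52 to 1.56) over all sites. Exon 6, of 161 nt, held 15 PDCD4 cDNAs at 5 sites and no IgG cDNA. The last exon, exon 22, which is mostly 3′UTR, held 74 and 44. A lncRNA gene on the same strand overlaps VCL, and 7 IgG sites and no PDCD4 site labelled VCL lay inside it. The highest PDCD4 score in VCL, 4, was shared by 7 sites, 5 of them coding, 1 in the 3′UTR and 1 in an intron. The intronic one, which has the lowest coordinate of the 7, was 2 nt before the last base of intron 2, and its window is shown because it spans the pyrimidine-rich end of that intron and the start of exon 3.
VCL intron 2, chr10:74070652-74070681, plus strand: ctgtgttcttccctaTagggttgagaatgc

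**Figure D4:**
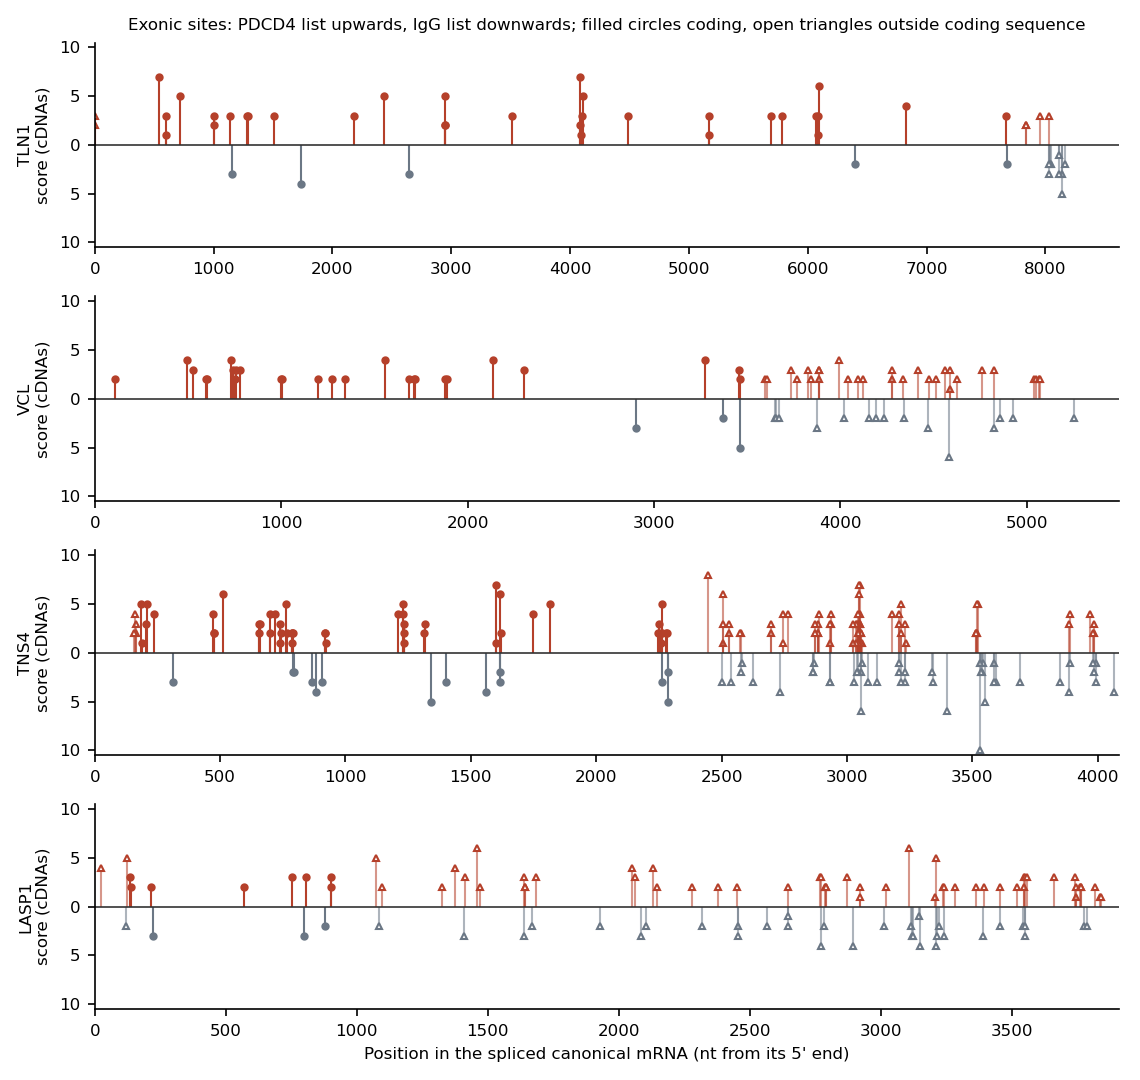
Scores (cDNAs, vertical axis) of exonic sites along the spliced canonical mRNA (horizontal axis, nt from its 5′ end) of TLN1, VCL, TNS4 and LASP1, with PDCD4 sites upwards and IgG sites downwards; filled circles lie in coding sequence and open triangles outside it. In TLN1 and VCL the PDCD4 sites spread over the coding sequence with few IgG sites opposite, while the 3′UTR sites of TNS4 and LASP1 stand opposite each other.

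TNS4 (ENSG00000131746, chr17:40475828-40501623, minus strand) had 548 cDNAs at 179 PDCD4 sites and 274 at 96 IgG sites, a log2 ratio of 0.43 (0.22 to 0.64). With sites within 20 nt merged into 1 the ratio was -0.26 (-0.75 to 0.23), and with scores greater than 5 it was -0.12 (-0.79 to 0.54). It alone held 12 of the 21 PDCD4 sites of the 10 genes with a score greater than 5, and 3 of the 5 IgG sites. Coding sequence held 143 and 44 cDNAs (1.11, 0.63 to 1.59), the 3′UTR 185 and 124 (0.01, -0.32 to 0.33) and introns 203 and 106 (0.36, 0.03 to 0.70). The 3′UTR value rests on sites in repeated sequence: with only sites whose next 30 bases occur once in the genome, the counts were 94 and 87 and the log2 ratio -0.46 (-0.88 to -0.04). TNS4 was the only one of the 9 genes tested on intronic sites whose interval lay above 0, as it did for 10.2% of 4678 genes. The intronic ratio of TLN1 was higher, at 0.49, but from fewer cDNAs, and its wider interval held 0 (-0.22 to 1.21). The intronic interval was below 0 for 4 of 9, against 39.9%. At least 2-fold more intronic cDNAs in the IgG list were held by 2 of the 9, PTK2 and ZYX, against 29.6%, and in the PDCD4 list by none, against 9.17%. Exon 2 held 43 PDCD4 and 3 IgG cDNAs, exon 3 held 43 and 14, and intron 3, of 1085 nt between exons 3 and 4, held 37 and 3. The highest site was in intron 9, with a score of 10, and the coding sites with scores of 7 and 6 in exon 6 lay 40 and 57 nt after its first base. The exon 6 site with a score of 6 was also an IgG site. These windows are given to set the intronic peak beside the coding sites.
TNS4 intron 9, chr17:40480091-40480120, minus strand: tttcctgggcacctcTacacacagggcaac
TNS4 exon 6, score 7, chr17:40484555-40484584, minus strand: gccaggggcttttgtCataagggacagctc
TNS4 exon 6, score 6, chr17:40484538-40484567, minus strand: taagggacagctcttCataccgaggctcct

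The highest IgG site of the 10 genes, with a score of 10, lay in the TNS4 3′UTR, with 2 PDCD4 sites within 10 nt. Its next 30 bases occurred 3 times in the genome. Over all TNS4 sites, the next 30 bases occurred once in the genome for 75.4% of PDCD4 and 83.3% of IgG sites, and for all sites of TLN1, TLN2, ZYX and ILK in both lists. With only such sites TNS4 had a log2 ratio of 0.34 (0.10 to 0.57). The genes most like TNS4 in level in the 2 lists were MPRIP, with 531 and 300 cDNAs, LARP1, with 584 and 297, and PLXNA2, with 491 and 281, by Euclidean distance in log2 cDNAs per 10000 over the 2 lists (0.138, 0.148 and 0.162).

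PXN (ENSG00000089159, chr12:120210439-120265771, minus strand) had 192 cDNAs at 61 PDCD4 sites and 194 at 79 IgG sites, a log2 ratio of -0.58 (-0.87 to -0.30). With scores greater than 5 it kept 4 PDCD4 sites and no IgG site, so the direction turned there. With coding sequence taken over all annotated transcripts, PXN ran opposite to the other members tested there. It held 20 PDCD4 and 31 IgG cDNAs, a log2 ratio of -1.18 (-1.97 to -0.38), whereas the ratio was above 0 for the other 5 of the 6 members with at least 20 coding cDNAs, as it was for 83.7% of 1400 genes. The interval lay above 0 for TLN1, VCL and TNS4, against 52.4% of these genes, and below 0 for PXN, against 3.07%. At least 2-fold more in the IgG list was seen for 3.21% of the 1400 genes on coding sites, and at least 2-fold more in the PDCD4 list for 54.1%, among them TLN1, VCL and TNS4. Exon 7 of the canonical transcript, 885 nt at chr12:120219207-120220091, held 8 PDCD4 and 18 IgG cDNAs, and 2 of 14 annotated coding transcripts contain this whole exon. Outside it the coding counts were 12 and 13, so most of the gap between 20 and 31 lay in this exon. No ratio or interval was computed without it, so the 2-fold call and the interval below 0 are not shown for the rest of the coding sequence. The long first intron held 68 of the 110 intronic PDCD4 cDNAs and 77 of the 128 intronic IgG cDNAs, and the 3′UTR 55 and 30 (0.29, -0.35 to 0.92). The 2 highest PXN sites, each with a score of 8 in the PDCD4 list, lay in the 3′UTR and in intron 9, and outscored every coding site of the gene. The window of the intronic site is shown.
PXN intron 9, chr12:120215903-120215932, minus strand: ccggtgaggcctcatCactgagcccggcca

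ZYX (ENSG00000159840, chr7:143381295-143391111, plus strand) had 56 cDNAs at 20 PDCD4 sites and 45 at 15 IgG sites, a log2 ratio of -0.26 (-0.82 to 0.30). Coding sequence held 36 and 13 cDNAs (0.83, -0.05 to 1.72) and introns 14 and 29 (-1.57, -2.46 to -0.67). Its coding-over-intron value of 2.40 (1.14 to 3.66) was second among the members to that of VCL, with overlapping intervals. Exon 5 held 27 of the 36 coding cDNAs of the PDCD4 list and 4 of the IgG list. The highest PDCD4 site of the gene, with a score of 5, lay in that exon, and 2 IgG sites, 1 coding and 1 intronic, had the same score.
ZYX exon 5, chr7:143382955-143382984, plus strand: agacacagttccatgTtcagccccagcccc

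LASP1 (ENSG00000002834, chr17:38869859-38921770, plus strand) was the member with the largest 3′UTR share, 64.9% of PDCD4 and 61.7% of IgG cDNAs. It had 202 cDNAs at 79 PDCD4 sites and 133 at 55 IgG sites, a log2 ratio of 0.03 (-0.28 to 0.35). The 3′UTR held 131 and 82 (0.10, -0.29 to 0.50) and coding sequence 20 and 8 (0.65, -0.47 to 1.78). No region of LASP1 thus had an interval that left out 0.

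PTK2 (ENSG00000169398, on chromosome 8, minus strand) lay almost wholly in introns in both lists. It had 191 cDNAs at 79 PDCD4 sites and 277 at 115 IgG sites, a log2 ratio of -1.10 (-1.37 to -0.84), which was -0.95 (-1.37 to -0.52) with sites within 20 nt merged. Introns took 94.2% (89.9 to 97.1) and 93.9% (90.4 to 96.4). Coding sequence held 4 and 5 cDNAs. Per kb of intron PTK2 had 0.545 PDCD4 and 0.787 IgG cDNAs, against 9.70 and 5.07 in TNS4. None of its 79 PDCD4 sites lay within 10 nt of an IgG site, which allows a share of up to 4.56%.

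ILK (ENSG00000166333, chr11:6603708-6610874, plus strand) had 13 cDNAs at 4 PDCD4 sites and 2 at 1 IgG site, which is under the minimum of 20, so no call was made (log2 ratio 1.65, -0.14 to 3.45). All 13 PDCD4 cDNAs lay in intron 2 of the canonical transcript, where some noncoding transcripts have exons, and the IgG site lay in coding sequence. Its partner LIMS1 (ENSG00000169756, chr2:108533671-108687246, plus strand) had 60 cDNAs at 28 PDCD4 sites and 47 at 20 IgG sites, a log2 ratio of -0.22 (-0.77 to 0.32). The first intron, of 125010 nt, held 42 of the PDCD4 and 37 of the IgG cDNAs. Coding sequence held 2 PDCD4 cDNAs and no IgG cDNA. Neither gene of this complex had more than 2 coding cDNAs in a list.

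**Figure D5:**
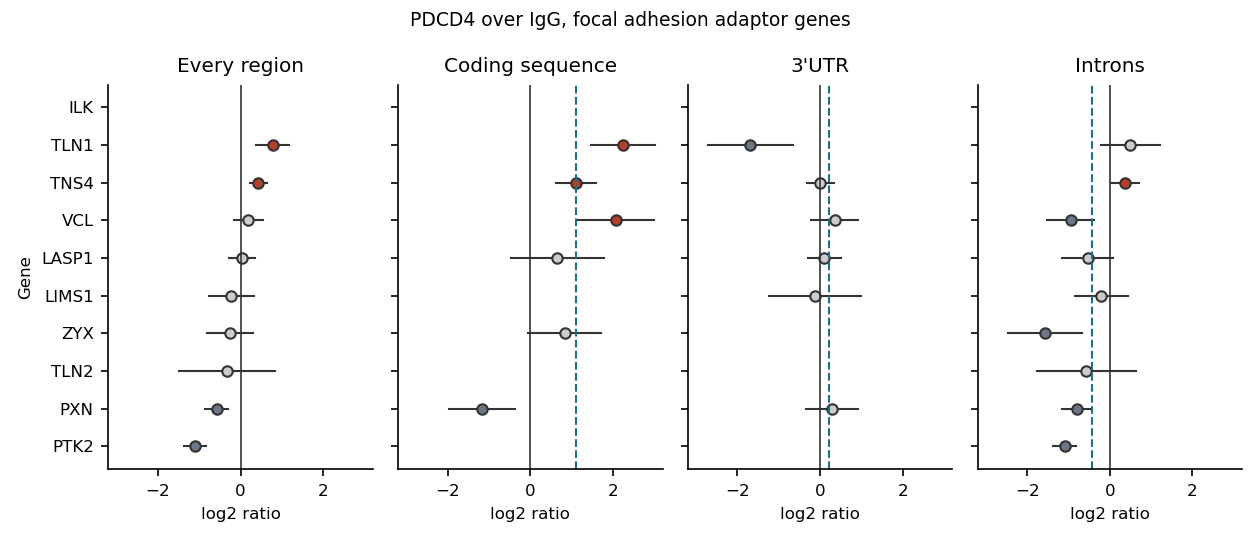
log2 ratio of PDCD4 over IgG (horizontal axis) for each gene over every region, coding sequence, 3′UTR and introns, with 95% counting intervals as lines; only genes with at least 20 cDNAs in the region are drawn, which leaves out ILK throughout. Dark red points have intervals above 0, grey-blue points below 0 and pale points across it, and the dashed line is the ratio over all listed sites in that region; TLN1 is high in coding sequence and low in the 3′UTR, and PXN is low in coding sequence.

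Exonic sites of the 10 genes were scarce near the 3′ ends of exons. In the 127 internal exons of at least 120 nt, none of 107 PDCD4 sites lay in the last 60 nt, which allows a share of up to 3.39%, while these 60 nt make up 33.8% of the exon length. Of 27 IgG sites, 1 did. Over all protein-coding genes the share was 3.36% (3.12 to 3.61) of 21445 PDCD4 sites and 4.63% (4.13 to 5.16) of 6659 IgG sites, for 27.9% of the length, so the scarcity was found in both lists and in genes at large. In introns, 11 of 266 PDCD4 sites and 2 of 289 IgG sites lay in the last 100 nt, and 6 of the 11 belong to TNS4. The first 100 nt of introns held 11 and 9 sites. The same shares over all genes were not computed, so these counts show no trait particular to these genes.

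The listed base was U at 49.7% (45.6 to 53.9) of the PDCD4 sites of the 10 genes and at 48.9% (44.2 to 53.6) of the IgG sites. Over all sites these shares were 46.7% and 51.6%. Coding PDCD4 sites of the 10 genes had U at 30.7% (23.2 to 39.1) and C at 37.9% (29.8 to 46.4), and intronic ones had U at 57.6% (51.3 to 63.8). The coding IgG sites had U at 32.6% (19.1 to 48.5) and the intronic ones at 51.3% (45.2 to 57.3). U was thus scarcer in coding than in intronic sites of the PDCD4 list. In the IgG list the order was the same, but the intervals overlap and it was not resolved.

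Sites of the lists often lay side by side in some of these genes. Of the 585 PDCD4 sites, 19.8% (16.7 to 23.3) were within 10 nt of an IgG site, against 4.56% of all PDCD4 sites, and the share was 34.6% in TNS4, 34.2% in LASP1 and 35% in ZYX but 1.89% in TLN1 and 0 in PTK2 and LIMS1. TNS4 supplied 62 and LASP1 27 of the 116 such sites. Genes with a like density of sites were not compared, so the excess cannot be read as a trait of focal adhesion genes. At 17 positions the lists named the same base, 11 of them in TNS4, 4 in LASP1 and 1 each in VCL and ZYX, although the methods describe a subtraction of IgG sites from the PDCD4 replicates.

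Other genes of focal adhesions were read from a list of 55 adaptors, kinases and actin linkers, of which 52 had a site and 47 reached 20 cDNAs. Their median log2 ratio was -0.31, and 6 were at least 2-fold higher in the PDCD4 list, beside 16.4% of all genes, and 7 in the IgG list, beside 16%. The summed ratio of the 10 genes lay 0.03 above theirs (-0.10 to 0.15). In coding sequence the other genes were higher, at 1.45 (1.27 to 1.64), and the 10 genes lay 0.38 below them on the log2 scale (difference -0.38, -0.72 to -0.04). FLNA alone held 416 of their 1204 PDCD4 and 61 of their 296 IgG coding cDNAs. Without it their coding ratio was 1.17 (0.96 to 1.38) and the interval of the difference held 0 (-0.10, -0.45 to 0.26). Over every region the 10 genes then lay 0.17 above them (0.05 to 0.30). That difference leaves out the largest gene of 1 side only. With TNS4 left out as well, the ratios were -0.28 (-0.41 to -0.15) for the members and -0.25 (-0.31 to -0.19) for the other genes. Of 20 other genes tested on coding sites, 15 were at least 2-fold higher in the PDCD4 list, beside 54.1% of all genes. Among the 38 with at least 50 cDNAs, the highest were KANK2, a talin-binding scaffold, with 48 and 6 cDNAs (2.24), FLNA, the actin crosslinker filamin A, with 658 and 96 (2.20), the tensin TNS2 with 45 and 11 (1.37) and PDLIM7 with 95 and 27 (1.21). The lowest were the kinase PAK2 with 67 and 123 (-1.43), the SH2 adaptor GRB2 with 31 and 52 (-1.30), RSU1, a partner of PINCH, with 44 and 71 (-1.25) and the kindlin FERMT1 with 32 and 45 (-1.05). Against the sums of 9 epithelial integrin genes, the receptors these adaptors serve, the 10 genes lay 0.82 lower over every region (difference -0.82, -0.99 to -0.64) and 1.01 lower in introns (difference -1.01, -1.25 to -0.78), while in coding sequence the interval of the difference held 0 (-0.12, -0.52 to 0.27). These sums do not stand for each integrin gene, whose median log2 ratio was 0.35 over every region and 0.09 in introns. In introns the interval lay above 0 for 2 of the 9 integrin genes and below 0 for 4, beside 10.2% and 39.9% of all genes.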

How the data were processed

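The lists were made by the authors with iCount on the Ensembl release 88 genome (GRCh38). The deposited score of each single-base site is a count of cDNAs that was left unnormalized, and each list pools 2 replicates; the depth of a single replicate is not known. Settings of demultiplexing, alignment and cDNA collapsing are not given in the sources used here. A threshold on the score (above 5) is part of the methods but was not applied to the deposited files; it is an alternative here. The 10 genes and the lists of other genes were chosen with earlier results of these data known.

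Sites were matched by exact gene symbol and placed on GENCODE release 44 by strand, taking coding sequence first, then 3′UTR, 5′UTR, noncoding exon and intron, over all transcripts of the labelled gene; 99.7% of labels were known to it. The canonical transcript gave exon numbers. Sums are over all listed sites. Log2 ratios add 1 cDNA to each sum and are relative to the list totals, with 95% intervals from the counting error of both sums. Shares have exact Clopper-Pearson intervals and sums exact Poisson intervals. A gene was called at 2-fold with at least 20 cDNAs over both lists. No p-value was computed. Genes named outside the 10 were the 4 highest and 4 lowest of the other focal adhesion genes with at least 50 cDNAs and the 3 nearest to TNS4. Exons, introns and sites singled out in the text were chosen after their values were seen, beyond the highest site of each gene. Values without FLNA, TNS4 or PTK2 and on sites whose next 30 bases occur once in the genome were added after the data were seen. Windows were read from GRCh38, and some are not reported here. The log2 ratios, their intervals and the 2-fold call were run on simulated independent Poisson sums per gene. These hold no clustering of cDNAs at sites and no replicate spread, so they cannot show how the intervals cover either. Python 3.11.15, numpy 2.4.6, scipy 1.17.1, pysam 0.24.0 and matplotlib 3.10.9 were used.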

Additional observations from a re-analysis of the deposited data

How the results depend on the processing

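No paired analysis was possible because each list pools its replicates, and for the same reason no replicate could be left out. Of the values that answer a comparison, 55 stayed within their counting interval, or their count within 1.5 times, and 20 moved. The summed log2 ratio of the 10 genes, -0.08, was 0.064 with scores greater than 5, -0.35 (-0.56 to -0.15) with sites within 20 nt merged, and, in alternatives chosen after seeing the data, 1.08 on coding sites, -0.54 on intronic sites, -0.28 (-0.41 to -0.15) without TNS4 and 0.14 (0.02 to 0.26) without PTK2. With scores greater than 5, 2 of 3 tested genes were at least 2-fold higher in the PDCD4 list (TLN1 and PXN; 51.3% of 156 genes) and 0 in the IgG list (20.5%), VCL and PTK2 being under the minimum with 1 IgG site each, and with merged sites 0 in the IgG list. The coding share of PDCD4 cDNAs was 27.7% with scores greater than 5, 19.1% with 3′UTR placed before coding sequence and 27.5% without PTK2, and that of IgG cDNAs 0%, 8.74% and 13.9%. With scores greater than 5, the intron shares were 34.0% and 17.6%, in the other order but with overlapping intervals and 1 intronic IgG site. The U shares at that threshold were 38.1% and 60%. On exonic sites the PDCD4 U share was 43.6%. PXN turned to 2.90 with scores greater than 5, where it has no IgG site, and TNS4 to -0.12 there and to -0.26 with merged sites. The cause was not tested. With scores greater than 5 the 10 genes have 21 PDCD4 and 5 IgG sites, which limits every value at that threshold. The other single-gene values kept their direction except VCL, at -4.76 (-7.79 to -1.74) there like PTK2.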
